A study of Rattus norvegicus with 484 samples.

Results

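Srebf1, Thrsp, Me1 and Acacb take different parts in lipogenic control, and each was read here by every probe that the platform table assigns to it. That gave 9 probes, 3 of Srebf1 and 2 each of Thrsp, Me1 and Acacb, of 23653 probes and 10210 named genes on the array, and all 9 entered the tests in every tissue. The arrays came from rats given 1 of 5 compounds or vehicle. In liver there were 73 vehicle rats, 14 given fenofibrate at 400, 15 given bezafibrate at 250, 15 given Wy-14643 at 100, 15 given rosiglitazone at 100 and 15 given retinoic acid at 25. Soleus, at the same doses, had 35 vehicle rats and 19, 20, 18, 20 and 20 treated rats in that order, and the muscle that the labels call Quad had 63 vehicle rats and 18, 20, 16, 16 and 18. Doses are in the unit that the labels write as mkd, and the rats of these 3 tissues were sampled on days 2 to 6. EDL, again a muscle named as in the labels, held lower doses: fenofibrate 50 (9 rats), bezafibrate 25 (9), Wy-14643 10 (12), rosiglitazone 10 (9) and retinoic acid 2.5 (11), plus 4 rats given rosiglitazone at 100 on day 4, and no arrays of single vehicle rats. The lower doses in EDL were sampled on days 4 to 6 for both fibrates and rosiglitazone, and on days 3 to 6 for Wy-14643 and retinoic acid. The labels give no strain, sex or age for these rats. Fenofibrate and bezafibrate are fibrates and Wy-14643 is a further agonist of the nuclear receptor PPARA; rosiglitazone is an agonist of PPARG, and retinoic acid is a ligand of the retinoic acid receptors.

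Each array compared 1 rat with a pool of vehicle rats of its own tissue and day, so the values are ratios and carry no absolute level. They cannot rank 1 gene above another, nor show whether a tissue expresses the genes that define it. All differences below are on the log2 scale and set a compound against single vehicle rats of the same day, with the days averaged equally. The labels give neither the base of the deposited logarithm nor which channel was divided by which. Rat over pool is the likely direction, and rests on the channel labels and on a known target: Cyp26a1, which clears retinoic acid, was 3.49 higher with retinoic acid in liver. Over all probes, single fenofibrate and bezafibrate arrays correlated with a median r of 0.253 in liver (lowest -0.141), 0.0812 in soleus and 0.0916 in Quad, where 3 and 4 pairs of arrays lay under -0.3 (lowest -0.367 and -0.372). Arrays of the same fibrate, fenofibrate first, had medians of 0.449 and 0.312 in liver, 0.120 and 0.0885 in soleus, and 0.110 and 0.108 in Quad. In muscle, arrays of 1 fibrate were thus little more alike than arrays of different fibrates. The labels give the same dye order for every array. The arrays that stood apart numbered 10, by their wide spread or by marker genes of another tissue, namely 3 of Quad vehicle rats, 3 of soleus vehicle rats, 1 each of bezafibrate, retinoic acid and fenofibrate in Quad, and 1 of rosiglitazone in liver. Without them 26 member tests against vehicle passed in liver, 4 in soleus and 2 in Quad, the same counts as with them. The liver tests that passed were not all the same ones, since Srebf1 probe 1 with rosiglitazone lost its call, as given below. The labels do not say whether the rats were housed or handled apart, so p-values measure the spread between these animals and no more. In tissue RNA, fewer cells of a type and less RNA per cell cannot be told apart.

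As background, fatty acid synthesis in liver is set by transcription factors that answer to insulin, sterols, glucose and thyroid hormone. Srebf1 encodes SREBP-1, which is cleaved from a membrane precursor and then activates the genes of fatty acid synthesis. Thrsp, also called Spot 14, encodes a small protein whose mRNA follows carbohydrate feeding and thyroid hormone. Me1 encodes cytosolic malic enzyme, which makes NADPH for the synthesis of fatty acids. Acacb encodes acetyl-CoA carboxylase 2, whose product malonyl-CoA, made at the mitochondrial surface, restrains carnitine palmitoyltransferase 1 and with it the entry of fatty acids for oxidation.

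The regions before the start sites are shown because the 4 genes are usually described as under shared control, and the text below turns on how far they moved together. They are the 250 bases upstream of each start in RefSeq on the rat assembly GRCr8, all on the minus strand and written 5′ to 3′, at chr10:45529165-45529414 and chr10:45519011-45519260 for the Srebf1 starts, chr1:161138965-161139214 for Thrsp, chr8:96540245-96540494 for Me1 and chr12:48138215-48138464 for Acacb. Capitals mark matches to a motif.
Srebf1 start 1: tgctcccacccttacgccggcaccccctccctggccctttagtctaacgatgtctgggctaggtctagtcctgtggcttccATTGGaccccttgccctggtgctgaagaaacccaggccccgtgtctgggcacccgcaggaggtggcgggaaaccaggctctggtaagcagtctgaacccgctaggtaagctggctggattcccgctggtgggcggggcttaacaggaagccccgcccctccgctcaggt
Srebf1 start 2: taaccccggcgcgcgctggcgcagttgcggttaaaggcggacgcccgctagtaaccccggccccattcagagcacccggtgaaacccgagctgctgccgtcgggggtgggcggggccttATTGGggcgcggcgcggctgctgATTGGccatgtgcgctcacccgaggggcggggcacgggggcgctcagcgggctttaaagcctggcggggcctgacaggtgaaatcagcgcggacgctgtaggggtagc
Thrsp: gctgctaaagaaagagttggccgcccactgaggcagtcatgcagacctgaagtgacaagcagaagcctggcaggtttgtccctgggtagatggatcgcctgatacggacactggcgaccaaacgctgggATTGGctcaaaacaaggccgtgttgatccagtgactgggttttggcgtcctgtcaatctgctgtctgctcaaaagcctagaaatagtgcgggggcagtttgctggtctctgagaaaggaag
Me1: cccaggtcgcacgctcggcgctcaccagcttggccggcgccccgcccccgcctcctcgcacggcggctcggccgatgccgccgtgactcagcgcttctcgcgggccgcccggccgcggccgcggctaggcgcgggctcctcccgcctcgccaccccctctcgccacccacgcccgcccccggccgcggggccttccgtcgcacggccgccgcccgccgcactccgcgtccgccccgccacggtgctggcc
Acacb: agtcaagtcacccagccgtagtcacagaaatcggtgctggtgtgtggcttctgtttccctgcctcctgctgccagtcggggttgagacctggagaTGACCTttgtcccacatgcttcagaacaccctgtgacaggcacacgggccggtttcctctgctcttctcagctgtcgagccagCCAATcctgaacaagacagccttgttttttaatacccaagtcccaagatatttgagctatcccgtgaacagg
The letters searched on both strands were CCAAT (the box bound by NF-Y), AGGTCA (a nuclear receptor half-site), TCACNCCAC (a sterol regulatory element) and CACGTG (an E-box). CCAAT was found on the opposite strand 169 bases before the first Srebf1 start, 131 and 108 bases before the second, and 121 bases before that of Thrsp, and on the same strand 72 bases before that of Acacb. Among 33469 rat promoters of this length 34% hold the CCAAT box. The half-site AGGTCA was found only before Acacb, on the opposite strand 155 bases upstream, and 14.1% of promoters hold it. The other motifs, held by 0.974% and 5.59% of promoters, were in none of the windows, and the Me1 window, 83.2% G or C, held no match at all. Only exact matches were sought, with any base at N. Variant forms of these motifs were not searched, so their absence is not shown. The probes were not placed on these starts, so no value below belongs to 1 of the Srebf1 starts.

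In liver the fibrates moved Srebf1 in opposite directions. The second Srebf1 probe was 2.61-fold higher with fenofibrate and 0.408 times vehicle with bezafibrate, while Me1 rose with both, 3.35-fold and 2.02-fold by its first probe. Thrsp fell with bezafibrate, to 0.375 and 0.509 times vehicle by its probes, and did not pass the test with fenofibrate. Acacb rose with fenofibrate, 1.57-fold and 1.63-fold, and did not pass with bezafibrate. By limma's moderated test with Benjamini-Hochberg adjustment over all probes at 0.05, 6 of the 9 probes were higher and 0 lower with fenofibrate, where 37.2% of all probes passed. With bezafibrate 2 were higher and 4 lower, where 21.4% of all probes passed. For the difference between the fibrates 8 were higher with fenofibrate and 0 lower, where 19.8% of all probes passed. The doses differ, 400 against 250, so these are differences between the groups as dosed and not between the compounds at a matched dose.

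**Figure D1:**
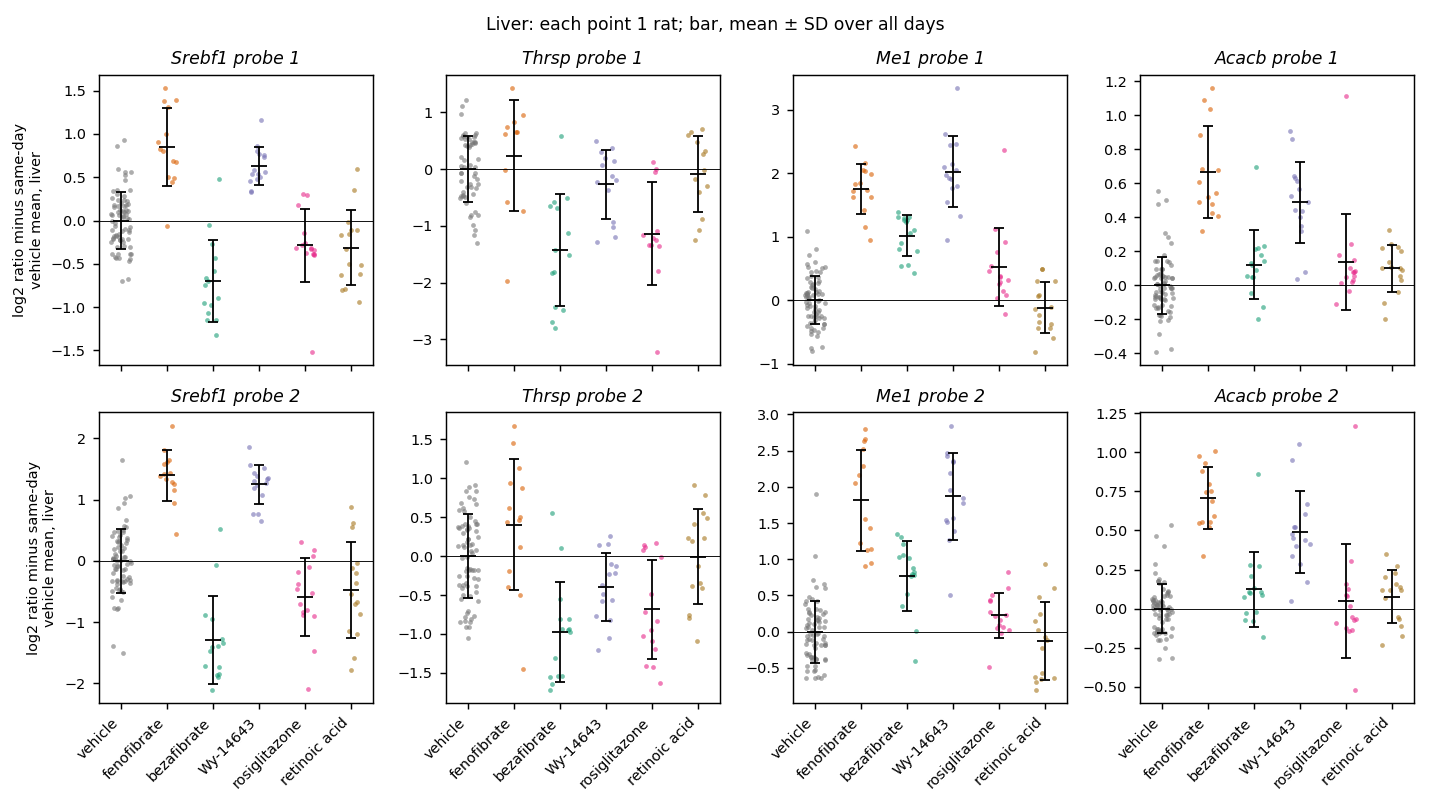
Log2 difference of each liver array from the vehicle mean of the same day, for probes 1 and 2 of Srebf1, Thrsp, Me1 and Acacb by compound. Points are single rats and bars are group means ± SD. Srebf1 probe 2 runs from 0.43 to 2.21 with fenofibrate and from -2.11 to 0.51 with bezafibrate.

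Srebf1, the regulator of the group, gave the widest separation. For probe 2, single vehicle rats ran from -1.50 to 1.65 around their day means. The fenofibrate rats had a lowest value of 0.43, a median of 1.40 and a highest of 2.21, and the bezafibrate rats -2.11, -1.40 and 0.51. All 14 fenofibrate rats lay above the vehicle mean and 14 of 15 bezafibrate rats below it. The fibrate groups overlapped through a single bezafibrate rat of day 2. Both groups still overlapped the vehicle rats: 3 of 14 fenofibrate rats were above every vehicle rat and 6 of 15 bezafibrate rats below every one.

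The fitted change of Srebf1 probe 2 was 1.38 ± 0.16 (SE) with fenofibrate (adjusted p = 2.72e-12) and -1.29 ± 0.16 with bezafibrate (adjusted p = 3.2e-11). The difference between the fibrates was 2.68 ± 0.21, with a 95% interval from 2.27 to 3.08 (adjusted p = 9.81e-21), a 6.39-fold ratio. Probe 1 showed the same directions at a smaller size: 0.87 ± 0.10 with fenofibrate, -0.70 ± 0.10 with bezafibrate, and 1.56 ± 0.13 between them (interval 1.30 to 1.83). Probe 3 did not follow. It stood at 0.03 ± 0.05 with fenofibrate and 0.09 ± 0.05 with bezafibrate, and its interval for the difference, -0.18 to 0.06, leaves out the changes of the other probes. Probes 2 and 3 were designed to the same transcript record, so the platform table does not tell them apart. The effects of Srebf1 are therefore given by probe, while the correlations between genes further on use the mean of all 3 probes.

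Thrsp separated the fibrates in the same order but from a different place. With bezafibrate probe 1 had a lowest value of -2.80, a median of -1.46 and a highest of 0.58, against -1.30 to 1.22 in vehicle rats, and 8 of its 14 measured rats lay below every vehicle rat. With fenofibrate the same probe ran from -1.97 through a median of 0.65 to 1.43, as wide as the bezafibrate group and on both sides of 0. The fitted changes were -1.42 ± 0.22 with bezafibrate (adjusted p = 3.7e-07) and 0.27 ± 0.27 with fenofibrate (adjusted p = 0.472, interval -0.27 to 0.81). Probe 2 gave -0.97 ± 0.16 and 0.37 ± 0.17 (adjusted p = 0.0763). Between the fibrates the difference was 1.68 ± 0.32 for probe 1 and 1.35 ± 0.22 for probe 2 (adjusted p = 3.68e-05 and 7.62e-07). Probe 1 lacked a value on 27 of the 484 arrays, so its liver fit used 56 vehicle and 11 fenofibrate rats.

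Me1, the NADPH source, rose with both fibrates and more with fenofibrate. Its probe 1 ran from 0.94 through 1.79 to 2.44 with fenofibrate and from 0.43 through 1.11 to 1.38 with bezafibrate, against -0.80 to 1.10 in vehicle rats. Thus 13 of 14 fenofibrate rats and 8 of 15 bezafibrate rats were above every vehicle rat. The changes were 1.74 ± 0.13 and 1.02 ± 0.13 for probe 1, and 1.79 ± 0.13 and 0.77 ± 0.13 for probe 2. The difference between fibrates was 0.73 ± 0.17 for probe 1 (adjusted p = 0.000528) and 1.02 ± 0.17 for probe 2 (adjusted p = 1.11e-06). When arrays were scaled to one spread the probe 1 difference was 0.39 (adjusted p = 0.0671), the 1 of the 8 calls between fibrates that an alternative ended.

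Acacb, which makes the inhibitor of fatty acid entry into mitochondria, was above the vehicle mean in every fenofibrate rat. Its probe 2 ran from 0.34 through 0.72 to 1.01 with fenofibrate, against -0.32 to 0.53 in vehicle rats, and 12 of 14 rats lay above every vehicle rat. With bezafibrate it ran from -0.18 through 0.10 to 0.86, and 1 of 15 rats lay above every vehicle rat. The changes were 0.70 ± 0.06 (adjusted p = 1.45e-20) and 0.12 ± 0.06 (adjusted p = 0.101), and probe 1 gave 0.65 ± 0.06 and 0.12 ± 0.06 (adjusted p = 0.117). The difference between the fibrates was 0.58 ± 0.07 for probe 2 and 0.53 ± 0.07 for probe 1 (adjusted p = 6.25e-10 and 1.31e-08). The changes of Acacb were smaller than those of Me1, and the vehicle rats also spread less, with an SD of 0.16 for Acacb probe 2 and 0.38 for Me1 probe 1.

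Single rats departed from their groups across several of the genes at once. In the bezafibrate rat numbered 1269, of day 6, Srebf1 stood at -0.27 and -0.06, Thrsp at 0.58 and 0.55 and Acacb at 0.70 and 0.86, which are the highest bezafibrate values of Thrsp and Acacb, while Me1, at 1.26 and 1.30, was like that of the other rats. The bezafibrate rat 1256, of day 2, had the highest Srebf1 of its group, 0.48 and 0.51. The fenofibrate rat 1141, also of day 2, had the lowest Thrsp of its group, -1.97 and -1.45, and Srebf1 at -0.07 and 0.43.

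By day, Srebf1 was apart on each of the 5 days. Probe 2 stood at 1.34, 1.20, 1.57, 1.44 and 1.36 on days 2 to 6 with fenofibrate and at -0.61, -1.36, -1.78, -1.62 and -1.10 with bezafibrate, with 2 or 3 treated rats a day. Thrsp probe 2 stood at 0.04, -0.03, 0.19, 1.33 and 0.35 with fenofibrate, high on day 5 alone, and at -1.01, -0.75, -1.52, -0.90 and -0.69 with bezafibrate. These day values have standard errors of 0.35 to 0.44, so most steps between neighbouring days lie within their error. Me1 probe 2 with fenofibrate stood at 1.40, 1.38, 1.17, 2.5 and 2.48, with standard errors of 0.28 to 0.34. Its slope over days, 0.33 ± 0.09 per day, had an adjusted p of 0.0537 (limma), and no slope of any member passed in any tissue, though 8 of 135 had an unadjusted p under 0.05. Of all probes, 0.842% had a passing slope in liver with fenofibrate, 0.0602% with bezafibrate, 0.155% with Wy-14643, 0.331% with rosiglitazone and 10.5% with retinoic acid. In Quad it was 1.73% with fenofibrate and 0 with the other compounds, and in soleus 0 with each. Probe 1 of Me1 stood at 1.65, 1.57, 1.70, 1.60 and 2.20, without the step on day 5. Acacb probe 2 stood between 0.58 and 0.85 on every day with fenofibrate and between 0.04 and 0.30 with bezafibrate.

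**Figure D2:**
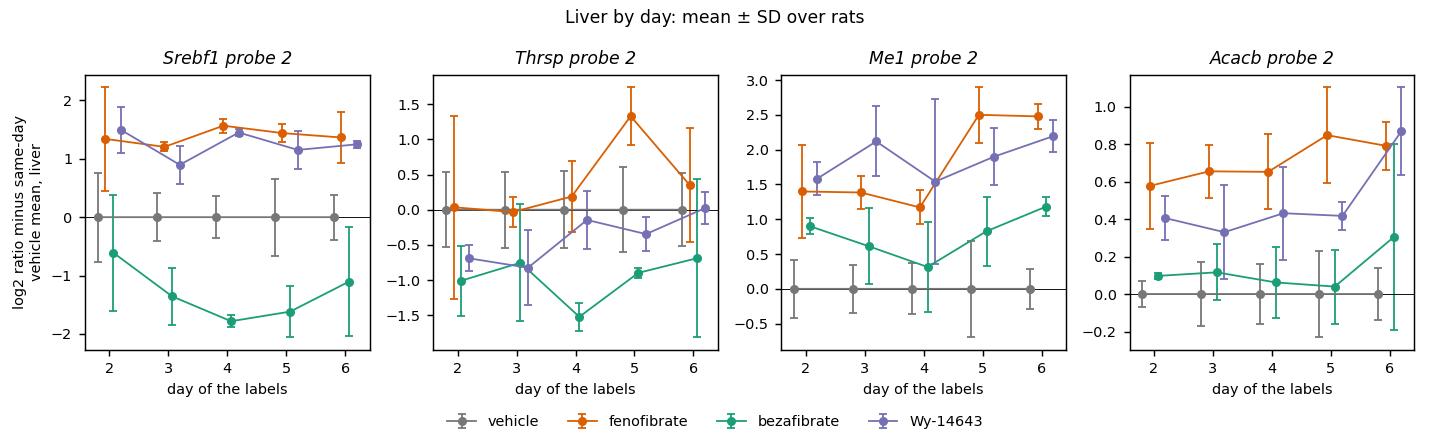
Log2 difference from same-day vehicle in liver by day for probe 2 of each gene in vehicle, fenofibrate, bezafibrate and Wy-14643 rats. Points are means over the rats of a day, 2 or 3 of them with fenofibrate or bezafibrate, and bars are ± SD. Srebf1 probe 2 lies at 1.20 or above with fenofibrate and at -0.61 or below with bezafibrate on all 5 days.

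Wy-14643, the third PPARA agonist, raised Srebf1, Me1 and Acacb in liver. Srebf1 rose by probes 1 and 2, 0.63 ± 0.10 and 1.25 ± 0.16, in 15 of 15 rats each, and probe 2 ran from 0.66 through 1.31 to 1.86. Me1 rose by 2.03 ± 0.13 and 1.87 ± 0.13, and 14 of 15 rats were above every vehicle rat by probe 1. Acacb rose by 0.49 ± 0.06 with both probes. Thrsp was lower by probe 2, -0.40 ± 0.16 (adjusted p = 0.0445), and stood at -0.26 ± 0.22 by probe 1 (adjusted p = 0.384). The Thrsp call ended in several alternatives, with adjusted p = 0.23 without day 3. In all, 6 of 9 probes were higher and 1 lower, where 40.1% of all probes passed. Doses differ, and Wy-14643 was not tested against the fibrates.

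Rosiglitazone lowered Srebf1 and Thrsp in liver. Thrsp probe 1 ran from -3.23 through -1.23 to 0.13, and 5 of the 12 measured rats lay below every vehicle rat. The lowest value is that of rat 1376 of day 4, the doubted liver array, which also held the lowest Srebf1 and the highest Acacb of the group. The changes were -1.15 ± 0.24 and -0.69 ± 0.16 for Thrsp (adjusted p = 0.000237 and 0.00141), and -0.28 ± 0.10 and -0.58 ± 0.16 for probes 1 and 2 of Srebf1 (adjusted p = 0.0311 and 0.00411). Me1 rose by probe 1, 0.52 ± 0.13 (adjusted p = 0.00144), and stood at 0.23 ± 0.13 by probe 2 (adjusted p = 0.19). Acacb stood at 0.14 ± 0.06 and 0.05 ± 0.06, neither past the threshold. Thus 1 probe was higher and 4 lower, where 22.4% of all probes passed. Without the doubted array Srebf1 probe 1 stood at -0.19 (adjusted p = 0.19), and the other 4 calls held: Thrsp stood at -0.95 and -0.61, Srebf1 probe 2 at -0.45 and Me1 probe 1 at 0.39. With array quality weights all 5 calls were lost, with adjusted p from 0.197 to 0.49, and only 587 probes of the whole array passed instead of 5201.

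Retinoic acid lowered Srebf1 in liver, and no other member passed. The changes were -0.31 ± 0.10 and -0.48 ± 0.16 for probes 1 and 2 (adjusted p = 0.0111 and 0.0132), in 13 and 12 of 15 rats, and -0.11 ± 0.05 for probe 3 (adjusted p = 0.0557). The Srebf1 calls ended when arrays were scaled to one spread, with adjusted p = 0.0738 and 0.121. Thrsp stood at 0.02 ± 0.24 and -0.01 ± 0.16, Me1 at -0.12 ± 0.13 and -0.13 ± 0.13, and Acacb at 0.10 ± 0.06 and 0.08 ± 0.06. The intervals of Thrsp, such as -0.33 to 0.32 for probe 2, leave room for changes as large as that of Srebf1 probe 1. So 0 of 9 were higher and 2 lower, where 28.9% of all probes passed. The members thus passed no more often than the array as a whole.

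Of 20 probes of 10 fatty acid synthesis genes, 11 were higher and 1 lower with fenofibrate, where 37.2% of all probes passed, with a median of 0.80 against 0.00 over all probes. With bezafibrate 5 were higher and 2 lower, where 21.4% of all probes passed, with a median of 0.01. Between the fibrates 11 were higher with fenofibrate and 1 lower, where 19.8% passed, with a median of 0.67 against 0.01. Scd, the stearoyl-CoA desaturase, was higher with fenofibrate by 4.44 ± 0.33 and 1.21 ± 0.09 by its probes. Fasn, the fatty acid synthase, stood at 1.00 ± 0.23 (passed) with fenofibrate and -0.29 ± 0.22 (not passed) with bezafibrate. Acaca, the cytosolic counterpart of Acacb, was changed by 0.84 ± 0.11 with fenofibrate and by -0.29 ± 0.10 with bezafibrate by 1 probe, and did not pass by the other, at 0.18 and 0.01. Acly, which supplies cytosolic acetyl-CoA, passed with neither: its probes stood at 0.21 ± 0.15 and 0.06 ± 0.15 with fenofibrate.

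Mid1ip1, the paralogue of Thrsp, had by 1 probe the direction of Srebf1 with each PPARA agonist. That probe changed by 1.18 ± 0.15 with fenofibrate, -0.39 ± 0.14 with bezafibrate, 0.88 ± 0.14 with Wy-14643 and 0.37 ± 0.14 with retinoic acid, and stood at 0.05 ± 0.14 with rosiglitazone. The other passed with fenofibrate alone, at 0.18 ± 0.05, and stood at -0.057 when the pool replaced the vehicle rats. Of 28 probes of 16 genes in the wider list of SREBP, LXR, ChREBP and thyroid hormone control, 5 were higher and 3 lower with fenofibrate, 2 and 7 with bezafibrate, 2 and 9 with Wy-14643, 1 and 6 with rosiglitazone, and 3 and 7 with retinoic acid. Of all probes 37.2%, 21.4%, 40.1%, 22.4% and 28.9% passed in the same order, so with fenofibrate and Wy-14643 this list passed no more often than the array as a whole. Insig1, which holds the SREBP precursor in the membrane, was 0.64 ± 0.19 higher with fenofibrate and stood at 0.27 ± 0.19 (not passed) with bezafibrate. With rosiglitazone the list members with the smallest adjusted p were Rxra, the partner receptor of PPARs, -0.46 ± 0.07, and Pklr, liver pyruvate kinase, -0.62 ± 0.12. Mlxipl, which encodes ChREBP, stood at -0.24 ± 0.06.

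On the oxidative side of the malonyl-CoA switch, Cpt1b and Mlycd rose with each of the PPARA agonists. Cpt1b, a carnitine palmitoyltransferase 1, was 2.81 ± 0.14 higher with fenofibrate, 1.63 ± 0.14 with bezafibrate and 3.25 ± 0.14 with Wy-14643. Mlycd, which degrades malonyl-CoA, was 0.89 ± 0.06, 0.67 ± 0.06 and 0.87 ± 0.06 higher in the same order. Of the 14 probes of the 10 genes of this list, 6 were higher and 2 lower with fenofibrate, 4 and 1 with bezafibrate, 6 and 2 with Wy-14643, 3 and 4 with rosiglitazone, and 2 and 4 with retinoic acid. Of the 2 NADPH supply genes that were measured, 1 was higher with fenofibrate and 0 with bezafibrate. Triglyceride assembly had 7 probes of 5 genes, with 3 higher and 0 lower with fenofibrate and 2 higher and 4 lower with bezafibrate. These counts stand against 37.2% of all probes with fenofibrate, 21.4% with bezafibrate, 40.1% with Wy-14643, 22.4% with rosiglitazone and 28.9% with retinoic acid. With retinoic acid the fatty acid desaturase Fads2 was lower, at -1.13 ± 0.11 and -1.45 ± 0.16, as was the phosphatidate phosphatase Lpin1, at -0.81 ± 0.12 and -0.77 ± 0.12. All these comparisons share the vehicle rats.

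Marker genes moved in liver beside these results. Of 6 probes of hepatocyte genes, 4 were lower and 0 higher with each of the PPARA agonists, with medians of -0.81 for fenofibrate, -0.44 for bezafibrate and -0.62 for Wy-14643. With rosiglitazone 2 were lower and 0 higher, both of Apoc3, at -0.63 and -0.64, and with retinoic acid 3 were lower and 0 higher: Alb at -1.53, Apoa1 at -0.77 and Ttr at -0.49. Of 15 probes of clock genes, 0 were higher and 1 lower with fenofibrate, 1 and 5 with bezafibrate, 1 and 9 with Wy-14643, 2 and 8 with rosiglitazone, and 0 and 5 with retinoic acid. Of all probes 37.2% passed with fenofibrate, 21.4% with bezafibrate, 40.1% with Wy-14643, 22.4% with rosiglitazone and 28.9% with retinoic acid. With fenofibrate the clock probes thus passed less often than the array as a whole. With each of the other compounds they passed more often, by the smallest margin with retinoic acid. The part of these markers in the results was not tested. Between the fibrates 1 clock probe of the 15 passed, that of Per2, 1.17 higher with fenofibrate, where 19.8% of all probes passed.

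Across all 147 liver arrays, after the vehicle mean of the day was subtracted, the mean of each member's probes was set against every named probe. Srebf1 was closest to Acaca (Pearson r = 0.736) and Mid1ip1 (0.726), followed by Gpd1 (0.714), Ap1s1 (0.702) and Acot8 (0.698). Thrsp was closest to Rcn3 (0.719), Tst (0.700), Sardh (0.675), Fasn (0.645) and Cyb5r3 (0.634). Me1 was closest to Cpt1b (0.881), Hhatl (0.860), Acat1 (0.858), Arhgef11 (0.855) and Chkb (0.854), and Acacb to Hhatl (0.801), Scd (0.780), Aldh5a1 (0.765), Lpcat3 (0.762) and Rrp7a (0.755). These arrays share compounds, so a likeness holds the group differences as well. Over the 73 vehicle arrays alone the correlations were 0.613 for Srebf1 with Acaca, 0.694 for Srebf1 with Mid1ip1, 0.742 for Thrsp with Rcn3, 0.507 for Me1 with Cpt1b and 0.272 for Acacb with Hhatl.

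Among vehicle rats, with no compound, Srebf1, Thrsp and Acacb varied together in liver and Me1 did not join them. Over 73 rats, with probes of a gene averaged and day means subtracted, Srebf1 and Acacb correlated with r = 0.619 and Spearman's rho = 0.618, Srebf1 and Thrsp with 0.538 and 0.533, and Thrsp and Acacb with 0.467 and 0.416. Without the 2 rats farthest from the median these Pearson values were 0.593, 0.458 and 0.491. By 100000 permutations within days the adjusted p over 30 relations were 0.00015, 0.00015 and 0.0006 for Pearson's r, and the raw p of the first pair was 1e-05, the smallest that these permutations can give. With Srebf1 taken from probes 1 and 2 alone, an alternative added after the data were seen, its r was 0.602 with Acacb and 0.583 with Thrsp, and both still passed. Me1 correlated at 0.074 with Srebf1, -0.073 with Thrsp and 0.263 with Acacb, none past the threshold in this permutation test. The last of these was -0.072 without the 2 farthest rats.

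**Figure D3:**
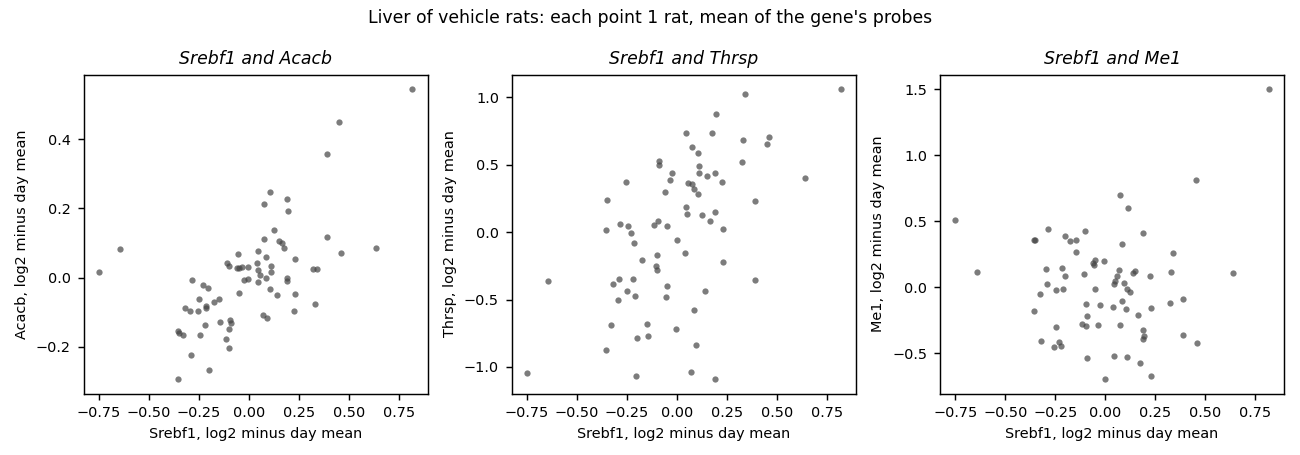
Srebf1 against Thrsp, Me1 and Acacb in liver, as log2 differences from the same-day vehicle mean with a gene's probes averaged. Points are the 73 vehicle rats. Thrsp and Acacb rise with Srebf1 (r = 0.538 and 0.619) and Me1 shows no such slope (r = 0.074).

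The pair Srebf1 and Acacb also varied together in muscle, less securely. In Quad r was 0.321 and rho 0.433 over 63 rats (adjusted permutation p = 0.0401 for r), and 0.243 without the doubted arrays (adjusted p = 0.266). With probes 1 and 2 of Srebf1 alone it was 0.098 (adjusted permutation p = 0.602), so the Quad relation did not hold without probe 3. In soleus r was 0.491 (adjusted p = 0.239) and rho 0.661 (adjusted p = 0.00282) over 35 rats, and r was 0.731 without the doubted arrays (adjusted p = 0.0002) and 0.690 with probes 1 and 2 alone (adjusted permutation p = 0.00075). Me1 and Acacb correlated in soleus with r = 0.889 and rho = 0.586. That relation leaned on a doubted vehicle array of day 3, rat 1022, in which Me1 probe 2 stood at -3.21 and Acacb probe 2 at -2.07, and without the doubted arrays r was 0.341 (adjusted p = 0.272). The level of a gene in 1 tissue of a vehicle rat did not pass the test with its level in another tissue of the same rat for any of the 4 genes, with r from -0.341 to 0.433 over 28 to 58 rats.

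In muscle few of the members passed. Fenofibrate raised Acacb in soleus, by 0.30 ± 0.06 and 0.29 ± 0.08 (adjusted p = 0.000555 and 0.0232). Probe 1 ran from -0.21 through 0.37 to 0.63, in 16 of 19 rats above the vehicle mean, against vehicle values from -1.19 to 0.35. These were 2 of 9 probes, where 3.32% of all probes passed. The call of probe 2 was lost without day 4, without day 5 and without day 6 (adjusted p = 0.183, 0.107 and 0.0876), and that of probe 1 was not. With bezafibrate and with Wy-14643 0 of 9 passed, where 0.777% and 0.219% of all probes passed, though Acacb stood at 0.18 ± 0.06 with bezafibrate and 0.17 ± 0.06 with Wy-14643 by probe 1 (adjusted p = 0.145 and 0.606). At an unadjusted p under 0.05 these were 3 and 3 of the 9 probes. Between the fibrates 0 of 9 probes passed in soleus and 0 in Quad, where 0.609% and 4.32% of all probes passed, and 1 and 0 had an unadjusted p under 0.05. The interval of the difference for Srebf1 probe 2 was -0.16 to 0.30 in soleus and -0.02 to 0.50 in Quad, both far below the difference in liver. Single arrays moved the counts over all probes. Without the soleus vehicle rat 1022, 2013 probes passed instead of 774 with fenofibrate, 573 instead of 181 with bezafibrate, 89 instead of 51 with Wy-14643 and 531 instead of 142 between the fibrates. Without the Quad fenofibrate rat 1157, 43 probes passed between the fibrates in Quad instead of 1010. Between the fibrates 0 of the 9 passed when each of these rats was left out in its own tissue.

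Rosiglitazone raised Thrsp in soleus, the opposite of its direction in liver. Probe 1 ran from -1.50 through 1.32 to 3.55 against -1.79 to 1.71 in vehicle rats, and 8 of 20 rats lay above every vehicle rat. The changes were 1.32 ± 0.29 and 0.38 ± 0.08 (adjusted p = 0.00143 and 0.000417), in 17 and 16 of 20 rats. These were 2 of 9 probes, where 2.34% of all probes passed (545, or 1049 without the vehicle rat 1022). By day probe 1 stood at 0.81, 0.19, 1.32, 2.60 and 1.70, and without day 5 the changes were 1.01 and 0.30 (adjusted p = 0.114 and 0.0527). In Quad Thrsp probe 1 spread widely in vehicle rats, from -1.76 through -0.37 to 3.76, and its change with rosiglitazone, 0.79 ± 0.41, had an adjusted p of 0.287. The difference of the effect between soleus and Quad, 0.54 ± 0.51, did not pass either.

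Some markers of fat cells moved with Thrsp in muscle. In soleus the median of 19 adipocyte marker probes, as a ratio to the pool, ran from -0.04 through 0.22 to 0.74 in rosiglitazone rats and from -0.29 through 0.01 to 0.24 in vehicle rats. In Quad it ran from -0.02 through 0.13 to 0.91 and from -0.35 through -0.04 to 0.44. With rosiglitazone 8 of 19 of these probes were higher and 0 lower in soleus, where 2.34% of all probes passed. In Quad 9 were higher and 0 lower, where 6.42% passed. The probes of Fabp4, the fatty acid binding protein of fat cells, stood at 0.71 to 1.62 in soleus, while Plin1, the coat protein of the lipid droplet, stood at 0.25 ± 0.15 (not passed). All the Quad calls were of Fabp4, Lipe and Pparg. There Cfd stood at -0.04 and -0.03, Retn at -0.04, Gpd1 at -0.08 and -0.09, and Lep from -0.06 to -0.01. In soleus Cfd stood at 0.06 and 0.04 and Retn at -0.02. None of these other markers passed, so the rise was not shared by all the listed genes. The ratios carry no level, so it cannot be seen whether the defining markers are near 0 in muscle.

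Thrsp correlated with the adipocyte median in vehicle rats of soleus (r = 0.654, rho = 0.724, 35 rats) and Quad (r = 0.793, rho = 0.717, 63 rats). It did so too in rosiglitazone rats of soleus (r = 0.847, rho = 0.823, 20 rats) and Quad (r = 0.856, rho = 0.859, 16 rats). Without the 2 farthest rats r was 0.698, 0.747, 0.801 and 0.819 in the same order. All 4 passed the permutation test over the 10 relations computed with these markers (adjusted p = 0.0004, 0.0001, 0.00153 and 0.0174). Srebf1, Me1 and Acacb did not pass with the markers in vehicle rats of either muscle. These 10 relations were added after the data were seen, and the part of fat cells in the Thrsp result was not tested.

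**Figure D4:**
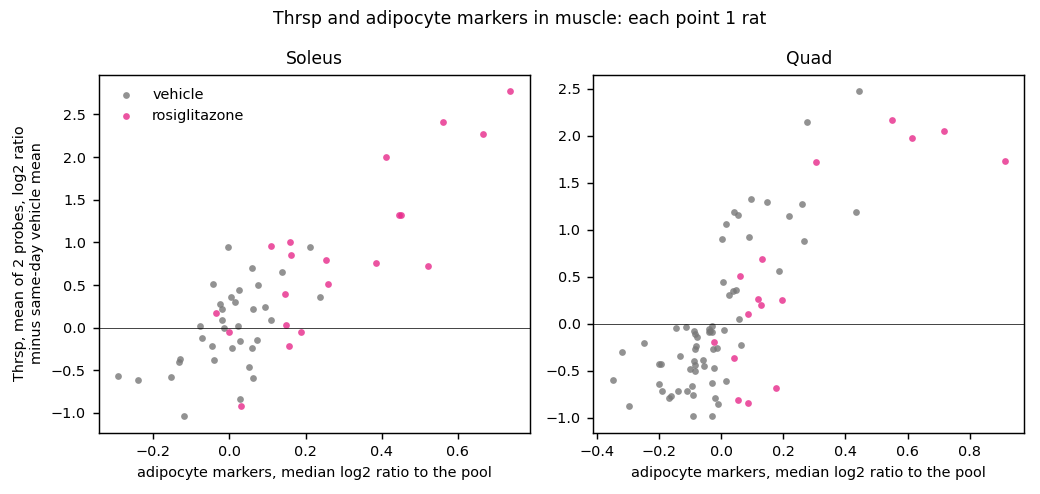
Thrsp (mean of its probes, log2 difference from the same-day vehicle mean) against the median of the adipocyte marker probes in soleus and Quad. Points are single vehicle and rosiglitazone rats. In both muscles Thrsp is higher in rats with higher marker medians, with r of 0.654 and 0.793 in vehicle rats.

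With rosiglitazone in Quad 1 of the 3 Srebf1 probes, probe 2, was higher and passed. Probe 2 ran from -0.10 through 0.52 to 1.27 in treated rats and from -0.75 through -0.06 to 2.04 in vehicle rats, so the groups overlapped throughout. Its change was 0.55 ± 0.12, with an interval from 0.31 to 0.78 (adjusted p = 0.000946), in 13 of 16 rats, and probe 1 stood at 0.22 ± 0.08 (adjusted p = 0.077). This was 1 of 9 probes, where 6.42% of all probes passed. With retinoic acid Acacb probe 1 was 0.17 ± 0.05 higher in Quad (adjusted p = 0.0403), 1 of 9 where 2.27% of all probes passed, and the call ended in 7 of the alternatives. With fenofibrate, bezafibrate and Wy-14643 0 of 9 passed in Quad, where 5.95%, 1.42% and 0.0428% of all probes passed, and 3, 3 and 0 had an unadjusted p under 0.05. Retinoic acid in soleus gave 0 of 9, where 2.36% of all probes passed, and 1 had an unadjusted p under 0.05. Without the Quad fenofibrate rat 1157 the probes that passed in Quad numbered 196 instead of 1392 with fenofibrate, 587 instead of 331 with bezafibrate and 2328 instead of 1501 with rosiglitazone. Without the vehicle rat 1068 they numbered 2313 with fenofibrate and 5 instead of 10 with Wy-14643, without the bezafibrate rat 1256 they numbered 165 with bezafibrate, and without the retinoic acid rat 1321 they numbered 6 with Wy-14643. In soleus 1169 passed with retinoic acid instead of 551 without the vehicle rat 1022. In Quad 2 of the member tests passed without each of these rats in turn.

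Tested directly, the effects in liver differed from those in muscle for several members with the PPARA agonists and rosiglitazone. Against soleus the fenofibrate effect was larger in liver for 6 of 9 probes, where 16.9% of all probes passed, and against Quad for 6 of 9, where 22.7% passed. Srebf1 probe 2 differed by 1.31 and 1.36, Me1 probe 1 by 1.77 and 1.62, and Acacb probe 2 by 0.42 and 0.59. For bezafibrate 1 probe was higher and 4 lower against soleus (6.24% of all probes passed) and 2 and 3 against Quad (9.88%), with Srebf1 probe 2 at -1.30 and -1.08. For Wy-14643 the counts were 6 and 0 against each muscle, where 20% and 23.6% of all probes passed.

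For rosiglitazone 1 probe was higher and 3 lower against soleus (5.18% of all probes passed: 1193, or 1931 without the soleus vehicle rat 1022) and 1 and 4 against Quad (12.9%). Thrsp probe 1 differed by -2.48 between liver and soleus and by -1.94 between liver and Quad. The first is the widest gap between tissues among the members, and the next widest are those of Me1 probe 1 with Wy-14643, 2.14 against soleus and 2.01 against Quad. For retinoic acid 0 were higher and 1 lower against soleus (12.5%) and 0 passed against Quad (15.9%). With the rat as a block, since the tissues came from the same rats, 3 calls against soleus were lost: Acacb probe 2 with Wy-14643 (adjusted p = 0.0553), Srebf1 probe 2 with rosiglitazone (0.0553) and Srebf1 probe 2 with retinoic acid (0.0629). Between soleus and Quad 0 of 9 passed for each compound, where 5.48% of all probes passed with fenofibrate, 0.0472% with bezafibrate, 0.00429% with Wy-14643, 0.0344% with rosiglitazone and 0.0687% with retinoic acid. An unadjusted p under 0.05 was found for 1 probe with fenofibrate and 1 with rosiglitazone. Of all probes 1276 passed with fenofibrate, and 77 without the Quad rat 1157, 537 without the soleus rat 1061, 2463 without the Quad rat 1068 and 2487 without the soleus rat 1022. The other compounds had 1 to 16 probes, and 2 to 29 where leaving out 1 array moved the count by over 1.5 times.

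**Figure D5:**
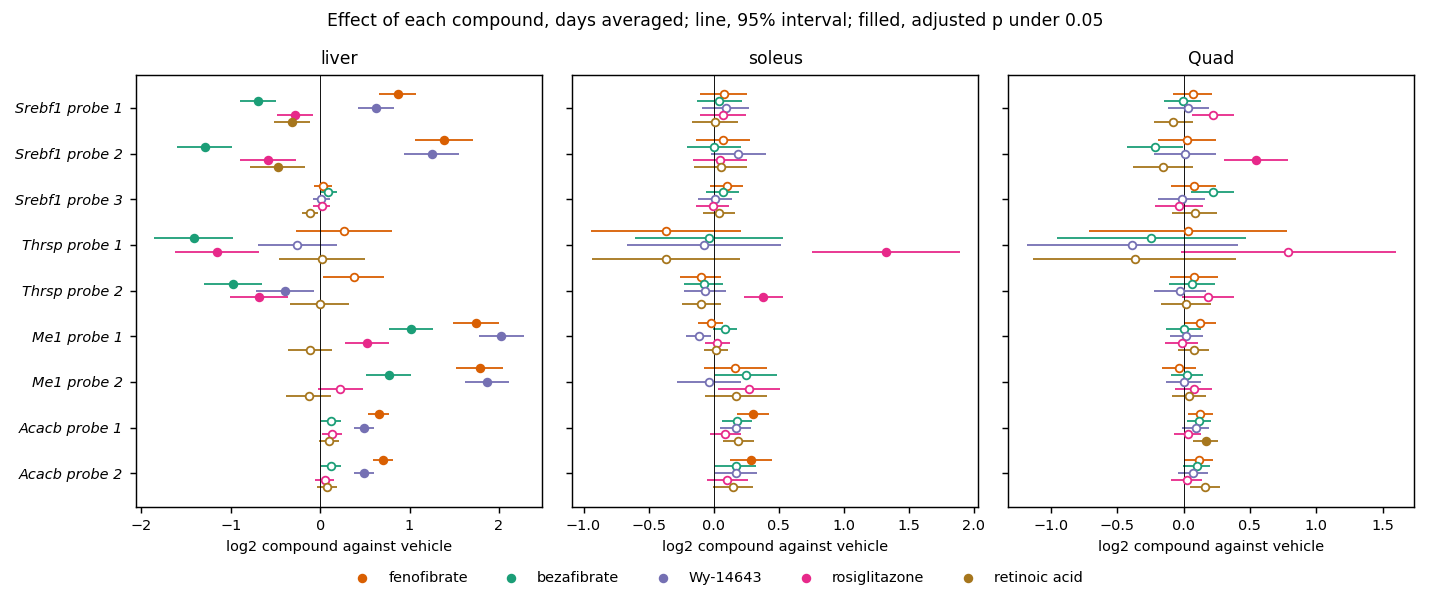
Log2 difference from vehicle in liver, soleus and Quad for the 9 probes and 5 compounds. Points are fitted effects, bars are 95% intervals and filled points passed the threshold. Srebf1 probe 2 in liver is at 1.38 with fenofibrate and -1.29 with bezafibrate, and in soleus the fibrate difference spans 0.

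In EDL, where no array held a single vehicle rat, the test was of the ratio to the pool, which holds 14 to 16 vehicle rats of a day and leaves out the spread of single controls. Acacb lay below the pool with all 5 compounds at the lower doses, from -0.38 ± 0.08 (fenofibrate) to -0.22 ± 0.08 (bezafibrate) by probe 2, and so did Srebf1 probe 3, from -0.42 ± 0.06 to -0.29 ± 0.06. Thrsp probe 1 lay above the pool with rosiglitazone at 10, 1.19 ± 0.28 (adjusted p = 0.000837), and with bezafibrate, 0.80 ± 0.28 (adjusted p = 0.0237). Markers of another tissue lay below the pool too. Of 17 probes of hepatocyte genes, 13 were lower and 2 higher with fenofibrate, 13 and 0 with bezafibrate, 13 and 1 with Wy-14643, 12 and 1 with rosiglitazone at 10, and 6 and 1 with retinoic acid, with medians from -0.34 to -0.15. Ahsg, a plasma protein of liver, stood at -1.67 with fenofibrate and -1.91 with bezafibrate. Their part in the member values was not tested. With rosiglitazone at 100 on day 4 Srebf1 probe 2 lay at 0.60 ± 0.18 (adjusted p = 0.00817, 3 of 4 rats). In all, 23 tests of members passed in EDL. Of the 9 probes 5 passed with fenofibrate, 4 with bezafibrate and 4 with Wy-14643. A further 5 of 9 passed with rosiglitazone at 10, 3 with retinoic acid and 2 with rosiglitazone at 100. Of all probes, 35.7% passed with fenofibrate, 34.5% with bezafibrate, 47.7% with Wy-14643, 38.1% with rosiglitazone at 10, 41.4% with retinoic acid and 33.3% with rosiglitazone at 100. With Wy-14643, retinoic acid and rosiglitazone at 100 the members thus passed no more often than the array as a whole. With the other compounds as the reference in place of the pool 0 of the 23 passed, and the smallest adjusted p was 0.431. The whole array fell likewise, from 8453 probes to 0 with fenofibrate, 8164 to 0 with bezafibrate, 11275 to 4 with Wy-14643, 9013 to 141 with rosiglitazone at 10 and 9781 to 25 with retinoic acid. Between the 2 rosiglitazone doses on day 4 0 of 9 probes passed, where 0.00423% of all probes did (1 probe, and 1 to 3 without single arrays), and 1, Srebf1 probe 2, had an unadjusted p under 0.05.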

How the data were processed

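The authors deposited log10 ratios for 23653 probes on 484 arrays, each of 1 rat (Cy5) against a pool of 10 to 16 vehicle rats of its tissue and day (Cy3), per the labels. Base and direction were inferred; values end at -2 and 2, with 699 at these limits and 0.907% missing. Normalisation is not given in the sources used here. Ratios were multiplied by 3.32193 to give log2 values. The platform table names 1 gene for 15260 probes, several for 17 and none for 8376.

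With limma 3.58.1 (R 4.3.3), 1 mean per compound and day was fitted in each tissue over probes with values on at least 80% of arrays. Tests were two-sided and moderated, adjusted by Benjamini-Hochberg over all probes at 0.05. Differences between tissues used both tissues in 1 fit. EDL ratios were tested against 0. Relations were tested by permutation within days in Python 3.11.15 with numpy 2.4.6 and pandas 2.3.3, and figures were drawn with matplotlib 3.10.9. Steps were tested on simulated data. Arrays were doubted when their spread exceeded 3 times the tissue's median or another tissue's markers lay over 2 log2 units high. Members and lists were chosen with earlier results of these data known. Named are all member probes, per comparison up to 4 passing list probes with the smallest adjusted p, fixed partners (Fasn, Acaca, Acly, Insig1, Mid1ip1) and the 5 genes most like each member. Fabp4, Plin1 and the other adipocyte genes, Per2 and the single rats named were chosen after their values were seen. Tissues of 1 rat share its number in the labels: after group means were subtracted their median correlation was 0.129 (liver and soleus, 106 rats), 0.135 (liver and Quad, 121) and 0.238 (soleus and Quad, 111), against -0.036, -0.018 and -0.072 for other rats of the same compound and day. Alternatives were other scalings, array weights, the pool as control, gene means, the rat as a block, and leaving out days or doubted arrays.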

Additional observations from a re-analysis of the deposited data

Results flagged for a closer look

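In the 36 sets of 4 to 10 EDL rats and a member probe that are small enough to test for a rat far from the rest, 1 was found: the fenofibrate rat 1122 stood at -0.50 for Me1 probe 1, where the other 8 ran from -0.09 to 0.05. Chance alone marks about 1 set in 20.

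The effect of a compound differed between tissues in 44 of 135 tests of the difference itself (limma's moderated test, Benjamini-Hochberg adjustment), each between liver and a muscle. With fenofibrate, liver minus soleus was 0.79 and 1.31 for probes 1 and 2 of Srebf1, 1.77 and 1.62 for Me1, and 0.35 and 0.42 for Acacb. Liver minus Quad was 0.80 and 1.36, 1.62 and 1.82, and 0.53 and 0.59 in the same order. With Wy-14643, liver minus soleus was 0.53 and 1.06 for Srebf1, 2.14 and 1.91 for Me1, and 0.32 and 0.32 for Acacb. Liver minus Quad was 0.59 and 1.24, 2.01 and 1.87, and 0.40 and 0.42.

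With bezafibrate, liver minus soleus was -0.74 and -1.30 for Srebf1, -1.38 and -0.90 for Thrsp, and 0.93 for Me1 probe 1. Liver minus Quad was -0.69 and -1.08 for Srebf1, -1.04 for Thrsp probe 2, and 1.02 and 0.74 for Me1. With rosiglitazone, liver minus soleus was -0.63 for Srebf1 probe 2, -2.48 and -1.07 for Thrsp, and 0.49 for Me1 probe 1. Liver minus Quad was -0.51 and -1.13 for Srebf1, -1.94 and -0.87 for Thrsp, and 0.54 for Me1 probe 1. With retinoic acid, liver minus soleus was -0.53 for Srebf1 probe 2. Without the doubted arrays the rosiglitazone differences of Srebf1 probe 2 and Me1 probe 1 against soleus, and of Me1 probe 1 against Quad, no longer passed, at -0.49, 0.36 and 0.37 (adjusted p = 0.085, 0.0808 and 0.055).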

How the results depend on the processing

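Across the alternatives, 18 of 26 called member tests against vehicle in liver kept direction and call under every one, as did 7 of 8 between the fibrates, 34 of 44 between tissues, 2 of 6 in soleus and Quad and 1 of 23 in EDL. Of the 5670 alternative values 7 had the opposite sign to a called value, without a call of their own. The count of calls changed as follows. In liver 0 slopes over days passed, against 3 with array quality weights, 1 without day 4 and 1 without the doubted arrays. Leaving out arrays singly gave 0 to 1, the 1 without the rosiglitazone rat 1376. In soleus 4 tests against vehicle passed, and 1 without day 5. There array weights gave 2 calls between fibrates and 1 slope, against 0 and 0. In Quad 2 passed: 1 with array medians subtracted, 1 without day 3, 1 without day 4 and 6 with the pool in place of vehicle rats. With probes averaged per gene 1 gene passed in Quad against 2, and 8 in EDL against 14. Without day 3, 1 test passed between soleus and Quad, against 0. With other compounds as the reference 0 of 23 passed in EDL, and values turned to 0.10 for Srebf1 probe 3 and to 0.10 and 0.10 for Acacb with bezafibrate, to 0.053 for Acacb probe 2 with Wy-14643, and to 0.054, 0.066 and 0.028 for Srebf1 probe 3 and both Acacb probes with rosiglitazone at 10. With the pool in place of vehicle rats, 1 Mid1ip1 probe turned to -0.057 (fenofibrate), -0.20 (Wy-14643), -0.22 (rosiglitazone) and -0.15 (retinoic acid) in liver and to -0.17 (fenofibrate) and -0.20 (retinoic acid) in Quad, and Fasn in Quad to -1.13 (fenofibrate) and -1.05 (rosiglitazone). The cause was not tested.

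With the rat as a replicate block, 19 differences passed between liver and soleus against 22, 22 against 22 between liver and Quad, and 0 against 0 between soleus and Quad, so the pairing changed no call beyond the 3 named in the report. Counts over all probes in liver moved by over 1.5 times with array weights (8653 against 4979 for bezafibrate, 7775 against 4607 between fibrates, 587 against 5201 for rosiglitazone), with arrays scaled to one spread (3396 for rosiglitazone), without day 4 (3427 for rosiglitazone) and without day 6 (2967 between fibrates). In soleus and Quad single arrays moved them further, as given beside those results. With Srebf1 taken from its probes 1 and 2, chosen after seeing the data, 5 relations among members passed in vehicle rats, against 5. The sets differ: Srebf1 and Acacb no longer passed in Quad (r = 0.098) and now passed in soleus (r = 0.690). Precision here is limited by how many arrays each group holds; spot signals were not analysed.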
